A study of Mus musculus with 21 samples.

Results

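Macrophages make several proteins that start, limit or dissolve blood clots, and 8 genes of this kind were followed here across 21 RNA-seq libraries. They are F3, F10, F13a1, Thbd, Plau, Plaur, Serpinb2 and Thbs1. They were named by symbol, and each symbol matched a single gene, so that they make up 8 of the 23250 genes in the deposited table. All 8 passed the filter on low counts in the fit of 13468 genes. All 8 are protein-coding genes, placed here on GRCm38 by GENCODE M21. F3 (ENSMUSG00000028128.13) lies at chr3:121723537-121735048, F10 (ENSMUSG00000031444.16) at chr8:13037308-13056676, Plau (ENSMUSG00000021822.3) at chr14:20836660-20843385 and Plaur (ENSMUSG00000046223.10) at chr7:24462484-24475968, each on the plus strand and with no other annotated gene over it. Thbs1 (ENSMUSG00000040152.8) lies at chr2:118111876-118127133 on the plus strand and Thbd (ENSMUSG00000074743.4) at chr2:148404466-148408188 on the minus strand.

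The cells were mouse bone-marrow-derived macrophages on the C57BL/6J background, grown for 7 days with supernatant of a line that secretes GM-CSF. The series text calls the macrophages deficient in the mannose receptor (MR, encoded by Mrc1). The labels give no allele, and every group, controls included, had Mrc1 at between 0 and 11 counts per library, at most 0.628 CPM (counts put on a shared library size). A single group was untreated (0 h), 3 groups received FcMR for 4, 12 or 24 h, and 3 groups received an isotype control for the same times. FcMR is a recombinant fusion of the extracellular region of MR with the Fc region of human IgG1, added as a soluble form of the receptor. Each of the 7 groups held 3 libraries. Nothing in the labels says that the 3 came from separate mice or cultures, so p-values measure only the spread between these libraries, which may be technical. None of the libraries came from untreated cells at 4, 12 or 24 h. In a comparison of isotype with untreated cells, the hours in culture and the isotype protein therefore cannot be told apart.

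Tissue factor, the product of F3, is the cell-surface receptor that starts the extrinsic pathway of coagulation. With factor VIIa it activates factor X (F10), factor Xa makes thrombin, and thrombin makes fibrin, which the transglutaminase factor XIII (its A chain is F13a1) crosslinks. Thrombomodulin (Thbd) turns thrombin towards activation of the anticoagulant protein C. Fibrin is removed by plasmin, which urokinase (Plau) makes from plasminogen while bound to its receptor (Plaur), and plasminogen activator inhibitor type 2 (PAI-2, Serpinb2) inhibits urokinase. Thrombospondin 1 (Thbs1) is an adhesive glycoprotein of platelet granules and of the matrix, and it binds CD36 and CD47 on cells.

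The 250 bases before the start site of the genes were read from RefSeq (GRCm38.p6), which gave windows for 5 of the 8 genes: F3, F10, F13a1, Plaur and Serpinb2. Thbd, Thbs1 and Plau had no entry. No link between motifs and the responses to FcMR, given further on, was tested. The windows of F3, F10, Plaur and Serpinb2 are printed as examples, and some of them share motifs. Each is 5′ to 3′ on the plus strand, which is the strand of all 4 genes. Capitals mark matches to the motifs searched on both strands, which were AP-1 (TGANTCA), CRE (TGACGTCA), ISRE (GAAA, any 2 bases, GAAA), the GC box (GGGCGG), the TATA box (TATAAA), PU.1 (GAGGAAG) and the kappaB motif.
F3, chr3:121723287-121723536: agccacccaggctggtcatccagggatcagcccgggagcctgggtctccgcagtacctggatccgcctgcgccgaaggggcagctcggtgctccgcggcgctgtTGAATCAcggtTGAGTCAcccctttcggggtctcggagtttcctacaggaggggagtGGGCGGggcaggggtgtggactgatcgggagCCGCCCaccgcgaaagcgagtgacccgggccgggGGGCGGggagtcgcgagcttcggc
F10, chr8:13037058-13037307: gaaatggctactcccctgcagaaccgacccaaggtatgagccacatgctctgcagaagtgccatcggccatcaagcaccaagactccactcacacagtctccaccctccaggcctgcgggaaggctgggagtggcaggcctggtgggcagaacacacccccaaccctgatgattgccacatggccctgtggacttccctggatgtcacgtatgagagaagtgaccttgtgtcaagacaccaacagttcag
Plaur, chr7:24462233-24462482: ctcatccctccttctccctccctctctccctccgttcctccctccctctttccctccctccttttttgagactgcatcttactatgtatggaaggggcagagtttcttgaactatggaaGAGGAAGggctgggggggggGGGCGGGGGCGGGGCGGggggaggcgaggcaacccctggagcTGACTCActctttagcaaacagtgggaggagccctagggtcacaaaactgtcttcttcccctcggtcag
Serpinb2, chr1:107511173-107511422: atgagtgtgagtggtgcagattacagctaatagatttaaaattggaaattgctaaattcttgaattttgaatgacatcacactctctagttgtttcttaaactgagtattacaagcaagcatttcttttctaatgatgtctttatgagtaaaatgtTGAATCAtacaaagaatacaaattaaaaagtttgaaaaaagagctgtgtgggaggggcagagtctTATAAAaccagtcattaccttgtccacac

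The F3 window held a pair of AP-1 matches, TGAATCA starting 146 bases before the start site and TGAGTCA starting 135 bases before it, and 3 GC boxes. Plaur held 1 AP-1 match, TGACTCA, 69 bases before its start, next to a run of GC boxes that overlap or touch each other and a PU.1 match. Serpinb2 held TGAATCA 94 bases before its start and a TATA box 29 bases before it. RefSeq lists another start site of Serpinb2, 87 bases further on, and from there the same 2 matches lie 181 and 116 bases before the start. F10 held no match to any of these motifs, F13a1 held only a PU.1 match in 1 of its 2 RefSeq windows, and no window held a kappaB match. Of the 7 RefSeq windows of the 5 genes, 4 held an AP-1 match (F3, Plaur and both overlapping windows of Serpinb2), against 6.75% of 32851 RefSeq promoter windows of the same length. The corresponding shares were 32.7% for the GC box, 12.4% for the TATA box, 10.6% for PU.1, 7.25% for kappaB, 2.98% for ISRE and 1.55% for CRE. These matches describe letters and not binding.

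Levels are given as CPM scaled by TMM, a library scaling of edgeR, as mean ± SD over 3 libraries. Differences are log2 fold changes from edgeR's quasi-likelihood test over all genes, and a gene was called higher or lower at a Benjamini-Hochberg adjusted p below 0.05. FcMR against isotype called 5 of the 8 genes at 4 h (3 higher, 2 lower), where 17.7% of all tested genes were called (8.62% higher, 9.13% lower). At 12 h it called 5 of 8 (2 higher, 3 lower), against 16.1% of all genes (8.61% higher, 7.49% lower). At 24 h it called 6 of 8 (3 higher, 3 lower), against 20.9% of all genes (11.4% higher, 9.44% lower). The FcMR and isotype libraries did not overlap for 6, 6 and 8 of the 8 genes at 4, 12 and 24 h, where 29.7%, 35.4% and 34.4% of all tested genes did not overlap. The median log2 fold change of the 8 genes was 0.32, -0.33 and -0.45 at the 3 times, beside -0.07, -0.02 and 0.01 over all genes tested. Serpinb2 and F10 were called higher under FcMR at 4, 12 and 24 h, and Thbd and Plau were called lower at all 3 times.

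**Figure D1:**
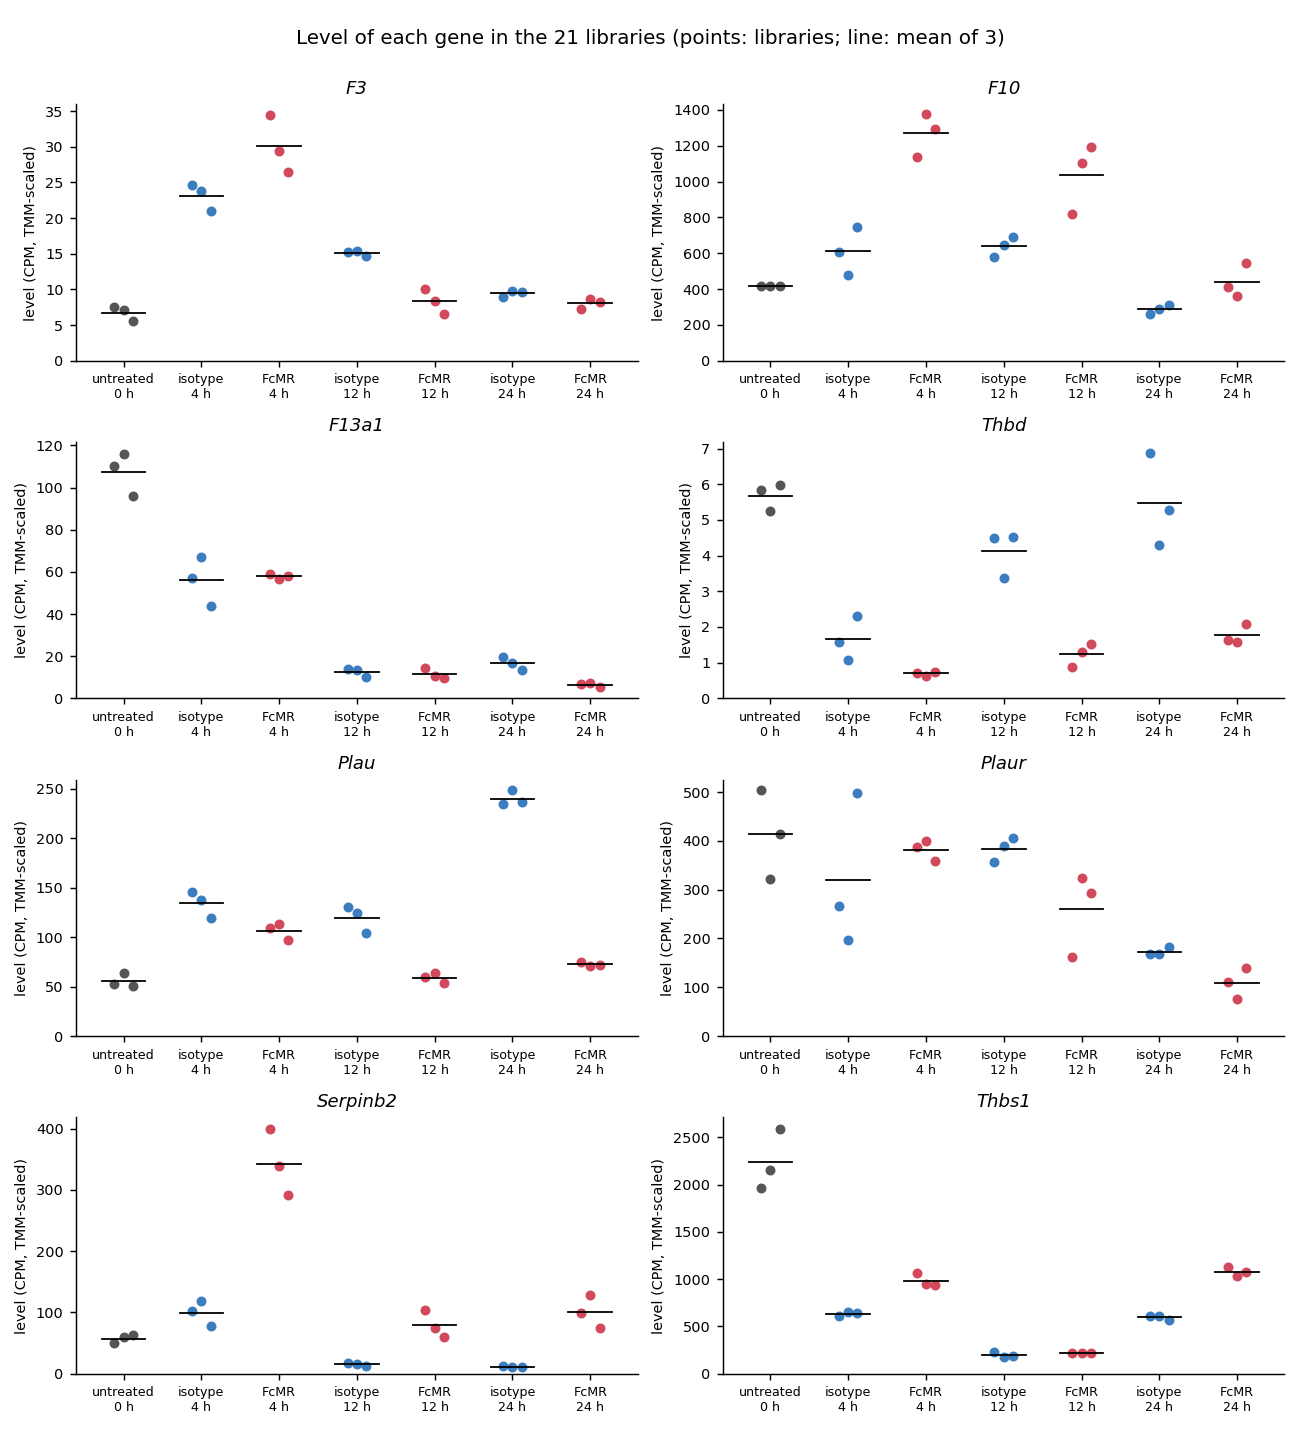
Level of each of the 8 genes in every library, in TMM-scaled CPM on a linear axis that starts at 0, for untreated, isotype and FcMR groups in order of time; points are libraries and lines are means of 3. Serpinb2 and F10 sit higher under FcMR than under isotype at each time, and Thbd and Plau sit lower.

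Serpinb2 had the largest difference between FcMR and isotype of the 8 genes at every time. At 4 h it stood at 399, 339 and 291 CPM in the FcMR libraries and at 102, 119 and 77.2 CPM in the isotype libraries. By 12 h the levels were lower: the FcMR libraries read 104, 74.7 and 60.3 CPM and the isotype libraries 18.2, 15.5 and 12.6 CPM. Every FcMR library was above every isotype library of its time, and the isotype level at 12 h lay below the untreated level, which was 50.1, 59.2 and 63.0 CPM. After 24 h the FcMR libraries held 99.8, 128 and 75.3 CPM, while the isotype libraries held 12.5, 10.4 and 10.3 CPM. The log2 fold changes in order of time were 1.79 ± 0.221 (SE; 3.46-fold), 2.38 ± 0.231 (5.19-fold) and 3.19 ± 0.245 (9.15-fold), with edgeR adjusted p of 1.98e-05, 9.88e-07 and 3.35e-08. Among FcMR cells the PAI-2 transcript was highest at 4 h, while the fold over the isotype control was largest at 24 h, where the isotype level was lowest. Serpinb2 (GRCm38, chr1:107511423-107535478, plus strand) overlaps Serpinb10 on the same strand, and how shared reads were assigned was not tested.

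Plau, which encodes the protease that PAI-2 inhibits, was lower under FcMR. At 4 h it stood at 109, 113 and 97.1 CPM with FcMR and at 146, 137 and 119 CPM with isotype. The gap was small, although the groups did not overlap: the log2 fold change was -0.33 ± 0.107 (edgeR adjusted p = 0.0423). That call was lost under DESeq2's size factors in edgeR (-0.26, adjusted p = 0.145), without the filter on low counts (-0.20, adjusted p = 0.401), in a fit of the compared groups alone (adjusted p = 0.142), in DESeq2 (adjusted p = 0.15), in limma (adjusted p = 0.206) and without a single library for 5 of the 6 libraries, all but isotype 4 h replicate 3 (adjusted p from 0.0769 to 0.35). At 12 h the libraries read 59.6, 63.6 and 53.1 CPM with FcMR against 130, 124 and 104 CPM with isotype. At 24 h they read 74.6, 71.0 and 71.8 CPM with FcMR against 234, 249 and 236 CPM with isotype. Both later differences were called, at -1.02 ± 0.108 (2.03-fold lower, adjusted p = 2.38e-06) and -1.73 ± 0.109 (3.31-fold lower, adjusted p = 2.91e-09). The FcMR level at 12 h (58.8 ± 5.33 CPM) overlapped the untreated level of 55.3 ± 6.92 CPM. At 24 h every library of both arms was above every untreated library. The level then was 72.5 ± 1.89 CPM with FcMR and 240 ± 7.97 CPM with isotype. FcMR was not tested against untreated cells.

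Because Serpinb2 and Plau moved in opposite directions, their ratio within each library was formed from CPM per transcript length. The length was the median over each gene's annotated transcripts, and the size of the ratio depends on it. The pair was chosen after its values were seen, so the ratio is a description without a test. In untreated cells the ratio of Serpinb2 to Plau was 1.45 ± 0.241. Over 4, 12 and 24 h the isotype ratio was 1.02 ± 0.163, 0.179 ± 0.0133 and 0.064 ± 0.00852 in turn. The FcMR ratio was 4.45 ± 0.523, 1.87 ± 0.474 and 1.94 ± 0.529. At 24 h the 3 isotype libraries ran from 0.0579 to 0.0737 and the 3 FcMR libraries from 1.45 to 2.50. The inhibitor transcript thus exceeded the urokinase transcript in all 9 FcMR libraries and was below it in all 6 isotype libraries of 12 and 24 h.

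**Figure D2:**
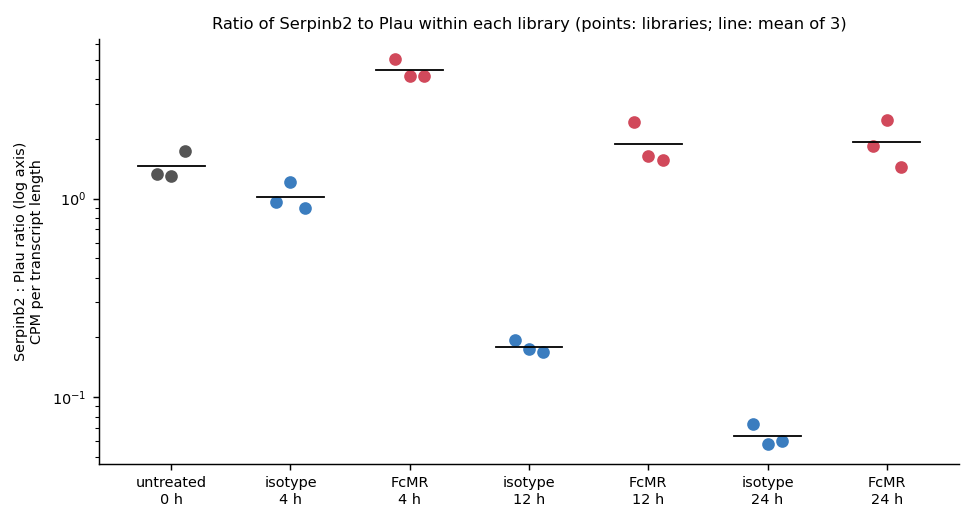
Ratio of Serpinb2 to Plau in each library, from CPM per transcript length, on a log axis; points are libraries and lines are means of 3. The isotype libraries fall from about 1.02 at 4 h to 0.064 at 24 h, and the FcMR libraries are at 1.45 or above.

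Plaur, the urokinase receptor, had no call between FcMR and isotype at any time. At 4 h it stood at 388, 400 and 358 CPM with FcMR and at 267, 196 and 498 CPM with isotype, which overlap (0.25 ± 0.293, adjusted p = 0.629). At 12 h the FcMR libraries read 161, 325 and 294 CPM, each below the isotype libraries at 356, 390 and 407 CPM (-0.56 ± 0.293, adjusted p = 0.242). At 24 h the FcMR libraries read 111, 74.9 and 139 CPM, again each below the isotype libraries at 168, 168 and 182 CPM (-0.67 ± 0.297, adjusted p = 0.128). The spread within groups was wide, and the GC tilt of the libraries is given beside it. This tilt is taken from the same counts, so a technical and a biological origin cannot be told apart. Its part in the spread was not tested. The GC tilt of a library is the difference in mean relative log2 CPM between the 10% of genes with the highest transcript GC content (at least 57.7%) and the 10% with the lowest (at most 42%). Plaur transcripts have a median GC content of 55.8%.

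In the isotype 4 h group, the GC tilt was -0.84, -1.59 and 0.631 in the libraries where Plaur stood at 267, 196 and 498 CPM. In the FcMR 12 h group it was -0.718 where Plaur stood at 161 CPM, and 0.72 and 0.817 where it stood at 325 and 294 CPM. In the FcMR 24 h group the tilt was -0.333, -1.25 and 0.428 where Plaur stood at 111, 74.9 and 139 CPM. The library with the lowest tilt was thus the library with the lowest Plaur level in each of these groups. Serpinb2, with a median transcript GC of 41.4%, was highest in the library of lowest tilt in the same 3 groups. This did not hold in every group. In the FcMR 4 h group Serpinb2 was lowest in the library of lowest tilt (291 CPM, against 399 and 339). In untreated cells the library of lowest tilt held 59.2 CPM, below another at 63.0 CPM. A correction for the tilt can also change differences between groups, because the tilt itself differed between groups. It was negative in all FcMR 4 h libraries (-0.411, -0.216 and -0.562) and positive in all isotype 12 h libraries (0.595, 0.815 and 0.834). In title order, the FcMR 12 h library at -0.718 followed libraries of negative tilt. The isotype 4 h library at 0.631 came just before libraries of positive tilt. When the fit carried a correction for transcript GC, Plaur was called lower at 12 h (-0.42 ± 0.122, edgeR adjusted p = 0.0149) and at 24 h (-0.58 ± 0.124, adjusted p = 0.00128), and its 4 h value stayed without a call (0.22 ± 0.122, adjusted p = 0.198). Serpinb2 was called at all 3 times in that fit too, at 1.91, 2.24 and 3.07. Without isotype 4 h replicate 3 the 4 h value of Plaur was 0.72 without a call (adjusted p = 0.0594). Without that library and FcMR 12 h replicate 1, both of which stand out of order in the library titles, it was again 0.72 and was called (adjusted p = 0.0168). The 24 h difference was called in that last fit too (-0.66, adjusted p = 0.0131).

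**Figure D3:**
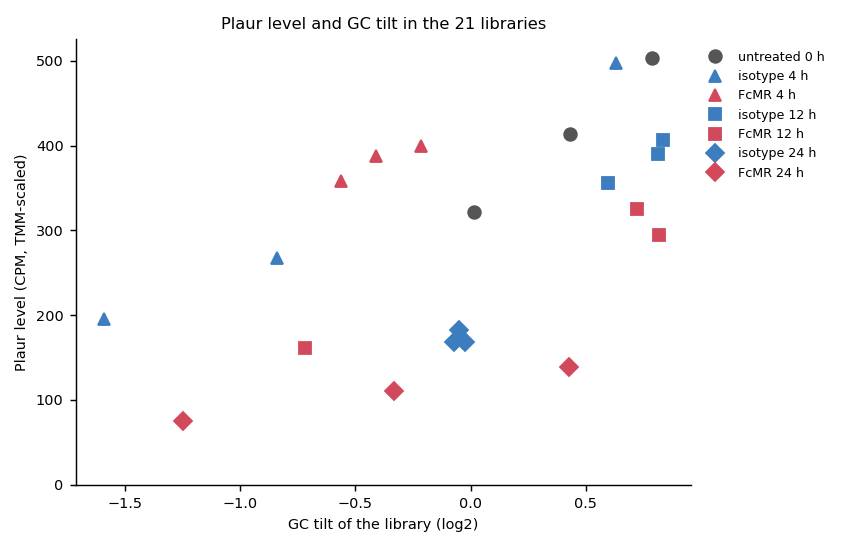
Plaur level (TMM-scaled CPM) against the GC tilt (log2) of the 21 libraries; colour marks untreated, isotype and FcMR, and the shape marks time. Within the isotype 4 h, FcMR 12 h and FcMR 24 h groups, the library of lowest tilt (-1.59, -0.718 and -1.25) has the lowest Plaur level.

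F10, which encodes the zymogen at the meeting of the intrinsic and extrinsic pathways, was higher under FcMR at every time. At 4 h it stood at 1137, 1375 and 1294 CPM with FcMR and at 605, 481 and 745 CPM with isotype. The 12 h FcMR libraries read 818, 1106 and 1193 CPM and the isotype libraries 580, 644 and 692 CPM. The 24 h FcMR libraries read 411, 361 and 546 CPM, against 263, 286 and 313 CPM. All FcMR libraries were above all isotype libraries of their time, and those of 4 and 12 h were also above the untreated level, which was nearly the same in its 3 libraries (415, 419 and 415 CPM). The log2 fold changes were 1.06 ± 0.168 (2.08-fold, edgeR adjusted p = 0.000249), 0.70 ± 0.167 (1.63-fold, adjusted p = 0.00622) and 0.61 ± 0.167 (1.53-fold, adjusted p = 0.013). The 24 h call was lost without FcMR replicate 3 (0.43, adjusted p = 0.0615) or without isotype replicate 1 (0.57, adjusted p = 0.0547). F10 was lowest in the library of lowest GC tilt in the isotype 4 h, FcMR 12 h and FcMR 24 h groups, as Plaur was. In the FcMR 4 h group (1294 CPM, against 1137 and 1375) and in untreated cells (419 CPM, against 415 and 415) it was not lowest there. With the GC correction the F10 differences were 0.99, 0.80 and 0.65, all 3 called.

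F3 stood above its untreated level in both arms at 4 h and differed between the arms by call at 12 h. Untreated cells held 7.48, 7.04 and 5.56 CPM. At 4 h the level was 34.5, 29.4 and 26.5 CPM with FcMR and 24.6, 23.8 and 21 CPM with isotype. All treated libraries of 4 h were therefore at least 21 CPM, above every untreated library, and the FcMR libraries lay above the isotype libraries without a call (0.39 ± 0.142, edgeR adjusted p = 0.0689). This difference passed the threshold with DESeq2's size factors in edgeR (0.45, adjusted p = 0.0478), without the low-count filter (adjusted p = 0.0445), with the GC correction (adjusted p = 0.00685) and in DESeq2 (adjusted p = 0.0307). At 12 h the FcMR libraries stood at 10.1, 8.38 and 6.61 CPM, all below the isotype libraries at 15.3, 15.4 and 14.7 CPM, and the difference was called (-0.86 ± 0.145, 1.82-fold lower, adjusted p = 0.000345). At 24 h the FcMR libraries stood at 7.30, 8.67 and 8.29 CPM and the isotype libraries at 8.93, 9.76 and 9.65 CPM, which was not called (-0.22 ± 0.152, adjusted p = 0.373). With FcMR at 12 and 24 h the tissue factor transcript averaged 8.35 ± 1.72 and 8.09 ± 0.709 CPM, and each of these groups overlapped the untreated libraries (6.69 ± 1.01 CPM), while the isotype libraries did so at no time.

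F13a1, the crosslinking enzyme, was below the untreated level in every library of both arms, and the arms had a called difference at 24 h. Untreated cells held 110, 116 and 96.0 CPM. At 4 h the FcMR libraries stood at 59.1, 56.5 and 58.1 CPM and the isotype libraries at 57.3, 66.9 and 44.0 CPM, and at 12 h both arms were between 9.76 and 14.4 CPM. The arms overlapped at both times (0.05 ± 0.172, edgeR adjusted p = 0.894, and -0.10 ± 0.182, adjusted p = 0.814). After 24 h the FcMR libraries stood at 6.89, 7.06 and 5.36 CPM and the isotype libraries at 19.7, 16.9 and 13.6 CPM. That difference was called, at -1.37 ± 0.193 (2.58-fold lower, adjusted p = 4.17e-05). The gene lies at chr13:36867178-37050244 (GRCm38) on the minus strand and is overlapped by the antisense genes Gm49144 and Gm30489, and whether the counting used strand is not given in the sources used here.

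Thbd was the least abundant of the 8 genes and was lower under FcMR at each time. At 4 h the FcMR libraries stood at 0.708, 0.639 and 0.745 CPM, from 10, 17 and 4 counts, and the isotype libraries at 1.58, 1.08 and 2.32 CPM, from 11, 6 and 20 counts. The 12 h FcMR libraries stood at 0.881, 1.31 and 1.51 CPM and the isotype libraries at 4.49, 3.37 and 4.51 CPM. At 24 h they stood at 1.64, 1.58 and 2.07 CPM against 6.87, 4.29 and 5.28 CPM. No FcMR library reached an isotype library of its time. The log2 fold changes were -1.31 ± 0.304 (2.48-fold lower, edgeR adjusted p = 0.00551), -1.74 ± 0.247 (3.35-fold lower, adjusted p = 6.11e-05) and -1.65 ± 0.248 (3.15-fold lower, adjusted p = 7.92e-05). The 4 h call was lost without isotype replicate 3 (-0.97, adjusted p = 0.088), and without that library and FcMR 12 h replicate 1 together (-0.98, adjusted p = 0.0771). In a fit of the 2 groups of 4 h alone, Thbd did not pass the low-count filter and was not tested. The isotype level of thrombomodulin transcript at 24 h (5.48 ± 1.30 CPM) overlapped the untreated level (5.68 ± 0.384 CPM), and the FcMR level at 24 h (1.77 ± 0.268 CPM) did not. Thrombomodulin is best known from endothelial cells. The 3 endothelial genes in the table summed to 113 to 125 CPM with FcMR at 4 h, against 59.2 to 62 CPM with isotype. At 12 h they summed to 49.8 to 57.0 and 36.8 to 42.3 CPM, and at 24 h to 28.8 to 31.1 and 25.8 to 32.8 CPM, and their part in the Thbd result was not tested. Nearly all of the sum was Kdr (108 against 52.2 CPM at 4 h, 1.05, edgeR adjusted p = 1.29e-05). At 4 h Cdh5 (5.56 against 3.78 CPM, adjusted p = 0.174) and Pecam1 (5.45 against 4.15 CPM, adjusted p = 0.534) had no call, and Pecam1 was higher at 12 h (1.2, adjusted p = 0.0262).

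Thbs1, the thrombospondin, was higher under FcMR at 4 and 24 h but not at 12 h. At 4 h it stood at 1068, 946 and 934 CPM with FcMR and at 615, 648 and 642 CPM with isotype (0.63 ± 0.103, 1.55-fold, edgeR adjusted p = 0.000315). At 12 h the FcMR libraries stood at 216, 221 and 216 CPM and overlapped the isotype libraries at 230, 177 and 186 CPM (0.14 ± 0.103, adjusted p = 0.473). At 24 h the FcMR libraries stood at 1124, 1030 and 1079 CPM and the isotype libraries at 614, 607 and 565 CPM (0.86 ± 0.103, 1.81-fold, adjusted p = 7.17e-06). The untreated libraries, at 1962, 2155 and 2589 CPM, were above every treated library. Both arms were lowest at 12 h and higher again at 24 h. The 2 libraries that stand out of order in the titles fell among their labelled groups for this gene, at 642 CPM (isotype 4 h) and 216 CPM (FcMR 12 h). Thbs1 overlaps the lincRNA Gm29233 on the opposite strand. Platelets carry much thrombospondin, so their markers are given beside it. The 7 megakaryocyte and platelet genes, of which 3 passed the filter and Gp1bb had at most 3 counts everywhere, summed to 14.9 to 18.7 CPM untreated. The sums were 56.0 to 73.5 CPM with isotype and 55.5 to 63.4 CPM with FcMR at 4 h, to 55.1 to 59.4 and 29.4 to 35.7 CPM at 12 h, and to 57.1 to 71.9 and 27.8 to 33.7 CPM at 24 h. The genes of this list did not move as 1 group. Ppbp, a platelet chemokine, held most of the sum in the isotype groups of all times and in the FcMR group of 4 h. It was lower under FcMR at 12 h (-1.51) and at 24 h (13.2 against 60.1 CPM, -2.17, edgeR adjusted p = 2.78e-08), where Gp6 was the larger part of the FcMR sum. Gp6, a collagen receptor of platelets, was higher under FcMR at 12 h (2.0) and at 24 h (15.6 against 1.01 CPM, 3.92, adjusted p = 1.12e-07), and Itga2b had no call at any time (0.52, -0.24 and -0.01). From untreated to isotype, Ppbp was higher at each time (3.44, 3.26 and 3.52) and Itga2b was lower at each time (-1.53, -1.33 and -2.69). The part of platelets in the Thbs1 result was not tested.

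**Figure D4:**
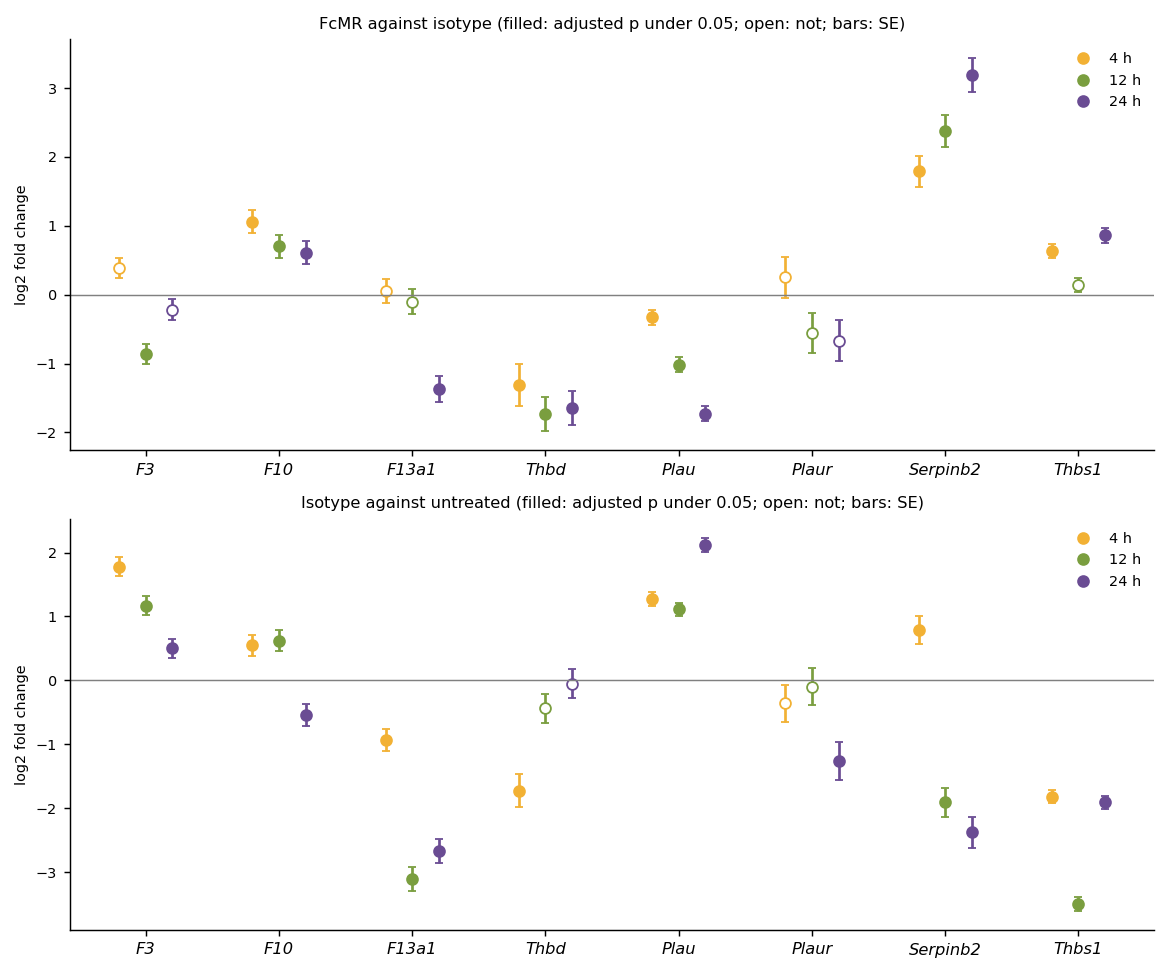
Log2 fold changes of the 8 genes at 4, 12 and 24 h, FcMR against isotype above and isotype against untreated below, on separate linear axes; bars are standard errors from edgeR's fit, filled points have an adjusted p below 0.05 and open points do not. Under FcMR, Serpinb2 goes from 1.79 to 3.19 and Plau from -0.33 to -1.73, and the open points are those of Plaur at all times, F3 at 4 and 24 h, F13a1 at 4 and 12 h and Thbs1 at 12 h.

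A joint test asked for each gene whether its FcMR effect was equal at 4, 12 and 24 h, and 5 of the 8 genes were called, against 11% of all genes tested. For Plau the effect at 24 h was lower than that at 4 h, a difference of -1.4 on the log2 scale (edgeR joint adjusted p = 3.78e-05). For F3 the effect at 12 h less that at 4 h was -1.25 (joint adjusted p = 0.00182), from above isotype at 4 h to below it at 12 h. For F13a1 the effect at 24 h less that at 4 h was -1.42 (joint adjusted p = 0.00258). For Thbs1 the effect at 12 h less that at 4 h was -0.49, and at 24 h less 4 h it was 0.23 (joint adjusted p = 0.00804). The Serpinb2 effect widened by 1.4 from 4 to 24 h (joint adjusted p = 0.0202). This call was lost in 9 of the alternative fits, with adjusted p between 0.0507 and 0.0872. F10, Thbd and Plaur had no call, with joint adjusted p of 0.405, 0.802 and 0.262. Plaur passed with the GC correction (adjusted p = 0.00501), without isotype 4 h replicate 3 (0.0214) and without both libraries out of title order (0.00653).

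The isotype arm itself moved away from the untreated cells, and it is the control of the FcMR comparisons, so the values of both comparisons share the isotype libraries. Isotype against untreated called 7 of the 8 genes at 4 h (4 higher, 3 lower), where 35.6% of all tested genes were called (20.4% higher, 15.2% lower). It called 6 at 12 h (3 higher, 3 lower), against 41.6% of all genes (22% higher, 19.6% lower), and 7 at 24 h (2 higher, 5 lower), against 42.2% of all genes (21.3% higher, 20.9% lower). The groups did not overlap for 7 of 8 at each time, against 42.4%, 61.8% and 62.7% of all tested genes. Thbs1 was lower at all 3 times, at -1.82 (3.52-fold lower), -3.50 (11.3-fold lower) and -1.91 (3.76-fold lower), with edgeR adjusted p of 2.94e-10, 1.4e-13 and 1.79e-10. F13a1 was lower at all times too, by up to 8.65-fold at 12 h (-3.11, adjusted p = 3.88e-10). The urokinase transcript, Plau, was higher by 1.27, 1.11 and 2.12 on the log2 scale, with edgeR adjusted p of 4.78e-08, 2.06e-07 and 9.07e-11. F3 was higher at each time, by 1.78, 1.17 and 0.50 (adjusted p of 4.14e-08, 4.62e-06 and 0.0141), and the 24 h call was lost without untreated replicate 3 (adjusted p = 0.0755).

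Serpinb2 was higher at 4 h (0.79, edgeR adjusted p = 0.00923) and lower at 12 h (-1.91, adjusted p = 2.72e-06) and at 24 h (-2.38, adjusted p = 3.35e-07). With the GC correction its 4 h value was 0.45, still called (adjusted p = 0.00744), and the call was lost without isotype replicate 2 (0.60, adjusted p = 0.0643). F10 was higher at 4 h (0.55, adjusted p = 0.0153) and 12 h (0.62, adjusted p = 0.00632) and lower at 24 h (-0.54, adjusted p = 0.0152). The F10 call was lost at 4 h without isotype replicate 3 (0.39, adjusted p = 0.0719) or without the low-count filter (0.45, adjusted p = 0.0696), and at 24 h without isotype replicate 1 (-0.44, adjusted p = 0.0801) or 2 (-0.50, adjusted p = 0.0539). Thbd was lower at 4 h (-1.73, adjusted p = 4.1e-05), and its later values of -0.44 and -0.05 were not called. In a fit of the compared groups alone, the 12 h value was called (-0.43, adjusted p = 0.0463). Plaur was called only at 24 h, where it was lower (-1.26, adjusted p = 0.00229). Its 4 h value of -0.36 was not called, and without isotype 4 h replicate 3 it was called at -0.83 (adjusted p = 0.0184), while with the GC correction it was -0.06 (adjusted p = 0.739).

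Levels of different genes can be compared only per length, so CPM was divided by the median length of each gene's annotated transcripts in kb. Which of these transcripts the cells expressed was not tested, and the order between genes depends on the length used. In untreated cells the order was Thbs1 at 687 ± 98.6 CPM per kb, Plaur at 355 ± 78.6, F10 at 287 ± 1.69, Serpinb2 at 42.1 ± 4.86, F13a1 at 36.2 ± 3.43, Plau at 29.3 ± 3.66, F3 at 6.63 ± 0.997 and Thbd at 1.53 ± 0.103. The ranges of Plaur (276 to 433) and F10 (286 to 289) overlapped, as did those of Serpinb2 and F13a1, and of F13a1 and Plau, so those neighbours cannot be ordered. After 4 h of FcMR the transcript with the highest level per kb was F10, at 876, ahead of Plaur at 328 (307 to 344), Thbs1 at 302 (287 to 328) and Serpinb2 at 252 (214 to 293), the last 3 of which overlap in that order. After 24 h of FcMR, Thbs1 (331) and F10 (303) led and overlapped in range, while Serpinb2 (74.2) was above Plau (38.4). With isotype at 24 h the order of the last pair was the reverse, with Plau at 127 and Serpinb2 at 8.11 CPM per kb. Thbd was the lowest in every group.

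The genes whose log2 CPM ran most closely with each of the 8 over the 21 libraries were taken by Pearson's r, which shares group, library and depth between all points and is a description only. Serpinb2 ran with Pde4b (r = 0.981), a phosphodiesterase for cyclic AMP, with Epha4 (0.954) and with Gosr2 (0.952). F10 ran with Tshz1 (0.975), Slco3a1 (0.973) and Gch1 (0.961), and F13a1 with Plxdc2 (0.987), Plbd1 (0.982) and Fcrls (0.968). F3 ran with Irf2 (0.949), an interferon regulatory factor, Ifi207 (0.94) and Crybg1 (0.937). Plau ran with Rin2 (0.956), Igf1 (0.953) and Colec12 (0.949), and Thbd with Nin (0.969), Tmem51 (0.961) and Mindy1 (0.959). Thbs1 had the lowest best match, Sgms2 (0.938), followed by Eif3f (0.928) and Hilpda (0.924). Plaur ran with Srebf2 (0.976), Scamp2 (0.964) and Sun2 (0.964). Among the 8 genes themselves the strongest relation was negative, between Thbd and Serpinb2 (r = -0.831), and F10 ran against Thbd (-0.732) and with Serpinb2 (0.607).

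A list of 51 other genes of coagulation, fibrinolysis and their receptors was examined, of which 41 were in the table and 31 passed the filter. FcMR against isotype called 7 of the 31 higher and 0 lower at 4 h, 7 higher and 4 lower at 12 h, and 9 higher and 5 lower at 24 h, with median log2 fold changes of 0.08, -0.03 and -0.04. The shares over all tested genes were 8.62%, 8.61% and 11.4% for higher calls and 9.13%, 7.49% and 9.44% for lower calls, in order of time. The plasminogen system, with 7 genes tested, had 3 higher at 4 h, 2 higher and 1 lower at 12 h, and 2 higher and 2 lower at 24 h. Of the 9 tested genes of the extrinsic and common pathway, 1, 1 and 2 were higher and 0, 1 and 1 lower at the 3 times. The 5 tested anticoagulants had 1 higher at each time and 1 lower at 12 and at 24 h. The 3 thrombin receptors tested had no call at any time by edgeR.

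Serpine2, a serpin that inhibits thrombin and urokinase, was higher under FcMR by 1.12, 2.24 and 2.12 on the log2 scale at 4, 12 and 24 h (edgeR adjusted p of 0.000324, 1.82e-08 and 3.35e-08). Plat, the tissue-type activator, was higher as well, unlike Plau: it stood at 41.2 ± 8.4 CPM with FcMR and 9.57 ± 1.62 CPM with isotype at 4 h (2.10, adjusted p = 2.13e-06), and was higher by 1.10 and 1.11 at 12 and 24 h. The untreated level of Plat was 0.809 ± 0.418 CPM.

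Of the anticoagulant genes, Procr, the protein C receptor that works beside thrombomodulin, stood at 293 ± 36.1, 607 ± 106 and 666 ± 61.7 CPM with FcMR and at 138 ± 43.5, 268 ± 53.1 and 272 ± 26.2 CPM with isotype. It was called higher at each time (1.08, 1.18 and 1.29), where Thbd was lower. Pros1, protein S, the cofactor of activated protein C, was lower at 12 h (-0.74, edgeR adjusted p = 0.0036) and at 24 h (-1.59, adjusted p = 1.36e-06), and its 4 h value was -0.20 without a call. Fgl2, a membrane prothrombinase, was higher by 1.19, 0.58 and 0.58. Xkr8, a scramblase that exposes phosphatidylserine, the surface on which factor Xa works, was higher by 1.0, 1.45 and 1.08. Of the thrombospondin group, Thbs4 was higher by 2.37, 1.63 and 1.71 at levels of at most 8.16 ± 0.388 CPM. Cd36, a receptor of Thbs1, was lower at 12 h (-0.46, adjusted p = 0.0408) and 24 h (-1.28, adjusted p = 5.35e-06). Cd47, which Thbs1 also binds, went the other way. It was higher at 12 h (0.47, edgeR adjusted p = 0.022) and 24 h (0.44, adjusted p = 0.0261), and its 4 h value of 0.33 had no call.

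**Figure D5:**
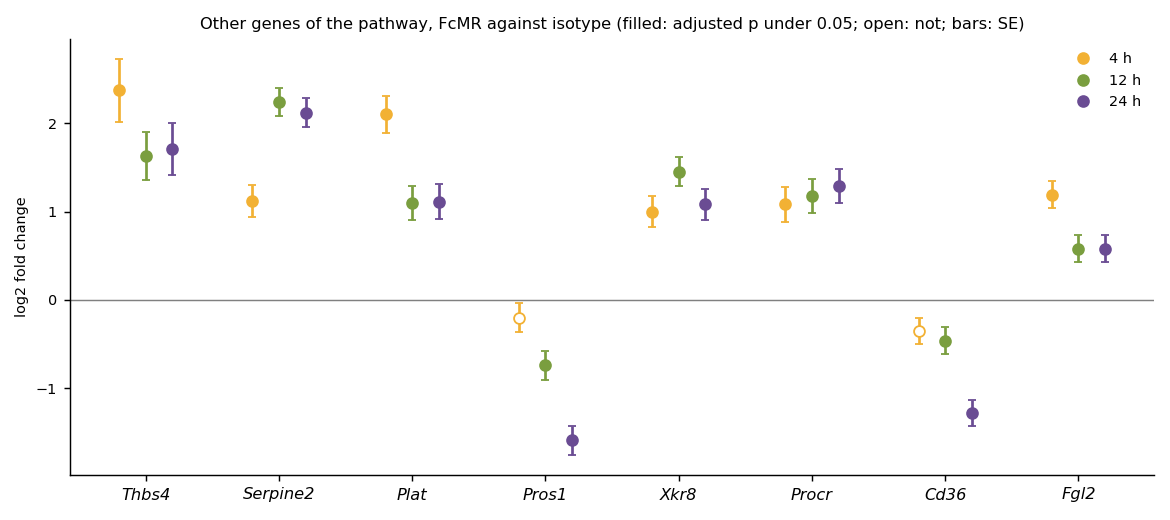
Log2 fold changes, FcMR against isotype at 4, 12 and 24 h, of the 8 other pathway genes with a called change of at least 1 in size; bars are standard errors from edgeR's fit, filled points have an adjusted p below 0.05 and open points do not. Plat is above 0 at each time, and Pros1 and Cd36 are below 0.

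Library totals ran from 5532225 to 66729533 counts, so that 3 counts correspond to between 0.045 and 0.542 CPM, and Thbd is the gene of the 8 whose levels lie nearest that range. All 7 macrophage markers listed were tested, and their summed level was 2162 to 4827 CPM. Summed levels of markers of other cells also differed between groups. The 8 neutrophil genes summed to 1398 to 1623 CPM in untreated cells and to 183 to 228 CPM at 24 h. At 24 h S100a8 was higher under FcMR than under isotype (0.69), Ltf (-2.27) and Ngp (-0.91) were lower, and the others had no call. The 3 monocyte genes summed to 646 to 756 CPM with FcMR at 24 h and 410 to 454 CPM with isotype, and the 6 dendritic cell genes to 714 to 764 and 422 to 488 CPM. Neither list moved as 1 group at 24 h by edgeR. Of the monocyte genes, Ly6c2 (1.04) and Vcan (0.57) were higher and Ccr2 was lower (-3.13). Of the dendritic cell genes, Ccr7 held most of the sum (672 against 395 CPM, 0.76) and was higher, as was Zbtb46 (0.69), while Flt3 (0.10), Clec9a (-0.30), Xcr1 (-0.62) and Cd209a (-1.16) had no call. Mast cell and basophil genes summed to at most 44.4 CPM, fibroblast genes to at most 4.39 CPM and lymphocyte genes to at most 4.41 CPM. The part of these cells in the results on the 8 genes was not tested, and in bulk RNA fewer cells of a type and less RNA per cell cannot be told apart.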

How the data were processed

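RNA of 21 libraries was prepared with a TruSeq kit and read as 75 bp single-end reads, per the labels' protocols. CASAVA 1.8.2, kallisto 0.44.0, DESeq2 and the builds mm10 and GRCm38 are named in the submitters' processing notes, with no role or order. The deposited raw table holds whole numbers that were treated as estimated counts, and rounding altered none. The authors' normalized table is a linear signal equal to the raw value over a factor of gene and library, and served only for limma on log2(value + 1). No other columns were present. Symbols and positions come from GENCODE M21 (GRCm38), which named 23187 of 23250 genes.

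The main test was edgeR 4.0.16 (R 4.3.3) with quasi-likelihood F tests in a single model of all 21 libraries, TMM factors, and filterByExpr (minimum 10 counts), which kept 13468 genes. Standard errors are the log2 fold change over the root of F. Calls used a Benjamini-Hochberg adjusted p below 0.05 over those genes. The code was tested on simulated data. Alternatives were other factors, filters, DESeq2 1.42.0, limma 3.58.1, a replicate block, a GC correction (natural spline, 4 degrees of freedom), the compared groups alone, and leaving out libraries. The 8 genes, the pathway list and the marker lists were chosen with earlier results of these data known. Pathway genes were named when called at 1 or more times with a log2 change of at least 1 in size and an average log2 CPM of at least 1. Cd47 fell short of that size and was named beside Cd36 because Thbs1 binds both. A planned gene of the pathway list and a planned monocyte marker are not reported here and are left out of the counts and sums. The closest genes were the 3 with the highest r for each of the 8 genes.

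Within groups, libraries correlated at r = 0.92 to 0.987 in log2 CPM. Their counts differed beyond sampling noise, with a chi-square of 3.09 or more for each degree of freedom, so no library was treated as a repeat deposit of another. This does not show that they came from separate cultures. Counting floors cover counting error only, since reads carry no molecular identifiers.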

Additional observations from a re-analysis of the deposited data

Results flagged for a closer look

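In 5 of the 8 genes the FcMR effect, taken as FcMR against isotype, differed between 4, 12 and 24 h by the joint edgeR test, with 3 libraries in each of the 6 groups. Of all genes tested, 11% were called by that test. The adjusted p was 3.78e-05 for Plau, whose log2 fold change was -0.33, -1.02 and -1.73 at the 3 times. It was 0.00182 for F3, at 0.39, -0.86 and -0.22. For F13a1 it was 0.00258, at 0.05, -0.10 and -1.37. For Thbs1 it was 0.00804, at 0.63, 0.14 and 0.86. For Serpinb2 it was 0.0202, at 1.79, 2.38 and 3.19. The Serpinb2 call was lost in several alternative fits, with adjusted p from 0.0507 to 0.0872.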

How the results depend on the processing

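With the compared groups alone in the fit, FcMR against isotype at 4 h called 3 genes in place of 5: Thbd did not pass the filter in that fit, which left 7 of the 8 genes tested, and Plau lost its call (-0.33, adjusted p = 0.142). Every other count of the 8 genes stayed within 1.5 times its main value in the alternatives run. Of the single-gene values under alternatives, 933 kept their direction and side of the threshold, 29 lost a call, 21 gained one and 8 changed sign. The 8 had no call in either fit, and the cause was not tested. F13a1 at 4 h read -0.10 without isotype 4 h replicate 3 and without both libraries out of title order, and from -0.10 to 0.23 over the fits that left out a library. F13a1 at 12 h ran from -0.28 to 0.01 over such fits (0.01 without FcMR replicate 3), and Plaur in isotype against untreated at 12 h from -0.26 to 0.07 (0.07 without untreated replicate 1). Thbd in isotype against untreated at 24 h read 0.0 in DESeq2 and in the fit of the compared groups alone, and ran from -0.21 to 0.14 with a library left out (0.14 and 0.02 without isotype replicate 2 and 3).

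Same-numbered libraries did not deviate together on average (mean r from -0.071 to 0.106), so the numbers were not taken as pairs. Single pairs ran from -0.166 to 0.338. With a replicate block FcMR against isotype called 6, 5 and 6 of the 8 genes, isotype against untreated 7, 6 and 7, and the joint test 5. Of all 13468 genes, FcMR against isotype called 2541, 2290 and 2911 with the block. Isotype against untreated called 5072, 5753 and 5849, and the joint test 1620. The block changed 1 call, F3 at 4 h (0.38, adjusted p = 0.0447). With GC correction and block together, calls were gained for F3 at 4 h (adjusted p = 0.00606), Plaur at 12 h (0.0137) and 24 h (0.00122), Thbd in isotype against untreated at 12 h (0.0221), and in the joint test for Plaur (0.00436) and F10 (0.019).

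Over all genes, FcMR against isotype at 4 h called 2390, against 3847 with the GC correction, 3982 with the block added, 3898 without both libraries out of title order, 868 with the compared groups alone and 1589 without FcMR 4 h replicate 2. At 12 h it called 2169, against 3366 and 3548 with the GC correction without and with the block. Isotype against untreated at 4 h called 4792, against 2881 with the compared groups alone. The joint test called 1484, against 925 without the filter, 2995 and 3214 with the GC correction without and with the block, 2616 without both libraries out of title order, 973 without FcMR 4 h replicate 2 and 2294 without isotype 4 h replicate 3. Depth limits Thbd most, with 4 to 20 counts in the 6 libraries of 4 h.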
